A study of Sus scrofa with 12 samples.

Results

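The early mevalonate pathway was followed in pig liver through 8 genes, namely ACAT2, HMGCS1, MVK, PMVK, MVD and FDPS, which encode enzymes of the route, and INSIG1 and SREBF2, which belong to its control. The genes were chosen by symbol, and every probe set that the platform annotation gives one of these symbols was used, whatever its level or spread. All 8 genes were found, through 13 of the 47845 probe sets, while the annotation names 13755 genes in all. The animals were 12 pigs from crosses of Large White by Landrace sows with Hylean Maxgro boars, sampled at day 140 from the right lobe of the liver, and each gave 1 snowball array. Residual feed intake (RFI) is the feed eaten beyond what growth and maintenance predict, so a low RFI pig has a high feed efficiency (FE). By the labels, 6 pigs were low RFI (males P307, P308 and P309, females P310, P323 and P324) and 6 were high RFI (males P301, P302 and P303, females P304, P317 and P318), with no treatment and no altered allele in either class. The pigs were chosen as siblings of divergent RFI, but the labels give no litter, so related pigs could not be paired. The liver markers fixed for hepatocytes, ALB among them, were all high, with a mean over the 6 markers of 12.85 to 13.02 in the 12 pigs.

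The mevalonate pathway turns acetyl-CoA into the isoprenoid units from which cells build cholesterol, dolichol and ubiquinone, and the liver is one of its main sites. ACAT2 in this annotation is the cytosolic acetyl-CoA acetyltransferase that joins acetyl-CoA units, not the cholesterol acyltransferase SOAT2 that once shared its name. HMGCS1 makes HMG-CoA, the kinases MVK and PMVK phosphorylate mevalonate, MVD decarboxylates it, and FDPS joins the isoprenoid units to farnesyl diphosphate. SREBF2 encodes SREBP2, a membrane-bound transcription factor that is cleaved when sterols are scarce and then drives these enzymes and its own gene. INSIG1 holds the SREBP escort in the endoplasmic reticulum when sterols are plentiful, and its gene is itself a target of the SREBPs, with insulin as a further known stimulus.

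Values are log2 signals after RMA, the normalization that equalizes the distributions of all arrays, and each difference is low RFI minus high RFI by the labels. The signs that the study prints for its fold changes run the other way from these labels, so directions rest on the labels alone. None of the 13 probe sets passed q under 0.30 in the limma fit over all probe sets, where 15 of 47845, or 0.0314%, passed. At an unadjusted p under 0.05 there was 1 of 13, a probe set of INSIG1, against a background of 7.29% (3.79% when only probe sets higher in low RFI are counted). The 2 classes overlapped in each of the 13 probe sets, and 0.339% of all probe sets did not overlap. In mean, 5 probe sets were higher and 8 lower in low RFI, with a median difference of -0.05 against -0.01 over the array. In bulk liver, fewer cells of a type and less RNA per cell cannot be told apart.

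**Figure D1:**
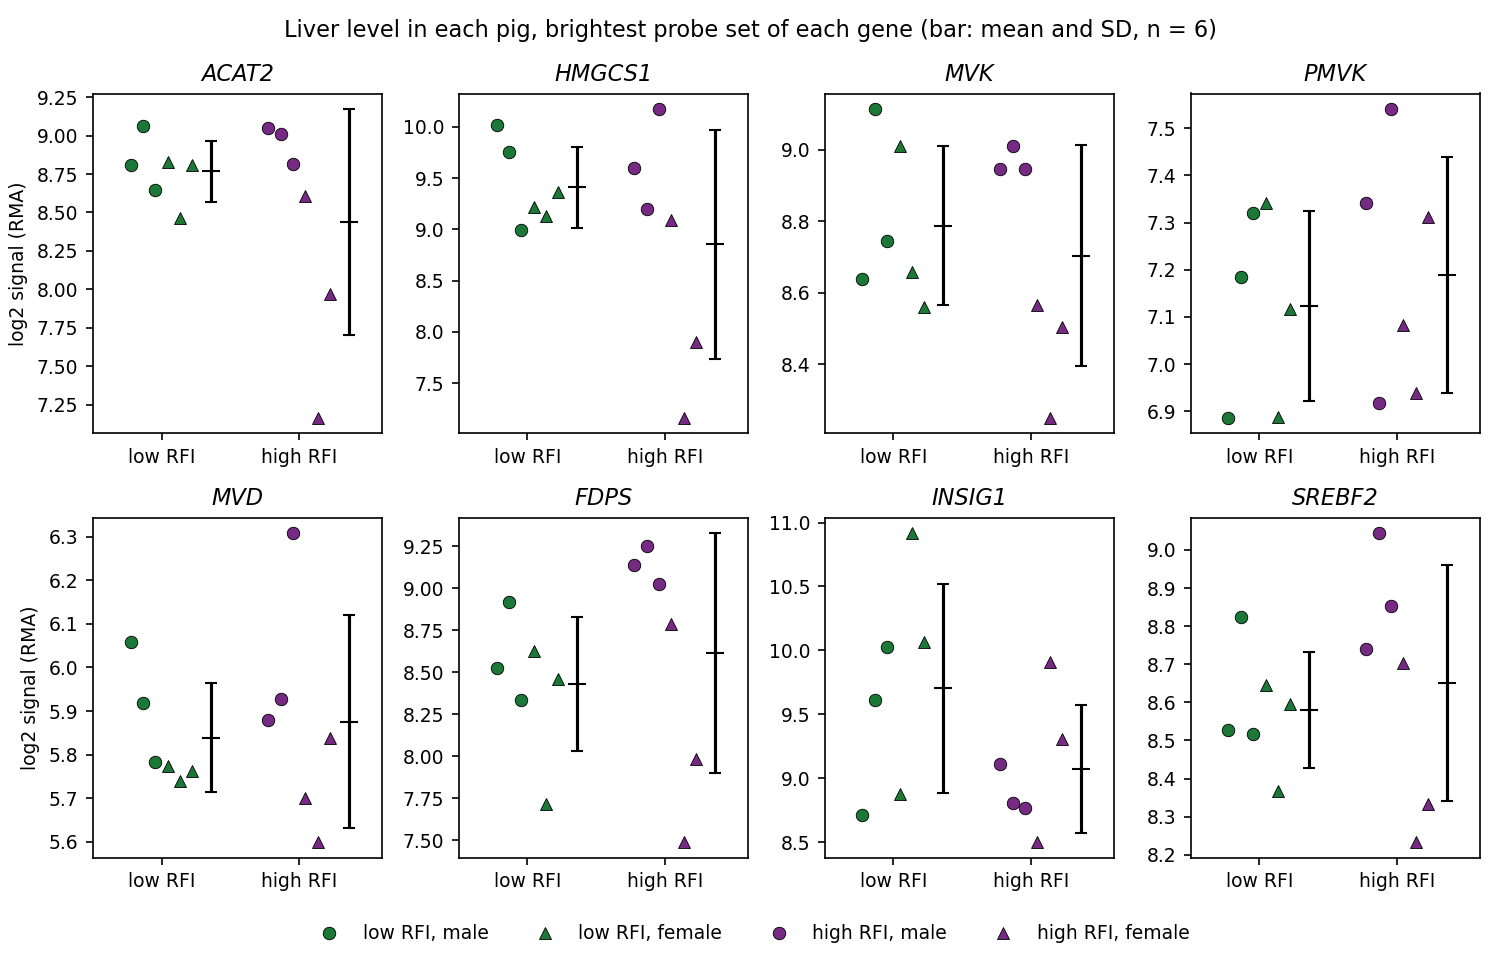
Log2 signal (vertical axes, each gene on its own scale) of the brightest probe set of each gene in the 12 pigs, by RFI class, with circles for males, triangles for females and bars for the mean and SD of 6 pigs. The 2 high RFI females P317 and P318 lie below every low RFI pig in ACAT2 and HMGCS1, while the classes overlap in all 8 genes.

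ACAT2 ranged from 8.47 over a median of 8.81 to 9.06 in low RFI pigs and from 7.16 over 8.71 to 9.05 in high RFI pigs. The low RFI pigs lay close together (SD 0.20), whereas the high RFI class was drawn out downwards by P317 at 7.16 and P318 at 7.97 (SD 0.74). The difference of 0.33 (SE 0.27, n = 6 per class, 95% interval -0.25 to 0.91) gave q = 0.716 in limma and p = 0.353 in a two-sided exact permutation test over the 924 assignments of pigs to classes.

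HMGCS1, the synthase that commits acetoacetyl-CoA to HMG-CoA in the cytosol, had the widest range of the 13 probe sets. Its bright probe set lay between 8.997 and 10.02 in low RFI pigs (median 9.29) and between 7.16 and 10.18 in high RFI pigs (median 9.15). All 6 low RFI pigs were above the high RFI mean of 8.86, but so were 4 of the high RFI pigs, and the lowest values were again those of P317 (7.16) and P318 (7.90). The difference of 0.56 (SE 0.41, 95% interval -0.33 to 1.44) was not larger than the spread between pigs (limma q = 0.696, exact permutation p = 0.303). It was 0.82 and under an unadjusted 0.05 without P303, and 0.37 without P318 or 0.22 without P317. A second HMGCS1 probe set was dim, with a mean of 2.37 that lies below the array median, differed by -0.06 and did not follow the bright one (r = -0.60, permutation p = 0.0418, and rho = -0.34, p = 0.288, across 12 pigs).

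The 2 kinases and the decarboxylase had class differences of under 0.1 in size. MVK lay between 8.56 and 9.11 in low RFI pigs (median 8.70) and between 8.25 and 9.01 in high RFI pigs (median 8.75). Its difference was 0.08 (SE 0.15, 95% interval -0.23 to 0.40, limma q = 0.816). For PMVK the low RFI pigs ran from 6.89 over 7.15 to 7.34 and the high RFI pigs from 6.92 over 7.20 to 7.54. Both classes of PMVK thus covered nearly the same span, and the difference of -0.07 had an interval of -0.34 to 0.21. MVD ran from 5.74 over 5.78 to 6.06 in low RFI and from 5.60 over 5.86 to 6.31 in high RFI, where P303 gave the highest value and P317 the lowest. Its difference was -0.04 (95% interval -0.28 to 0.21). All 3 intervals include 0. The PMVK and MVD signals, with means of 7.16 and 5.86, fall within the 4.77 to 7.57 that background probe sets with 17 to 24 G or C bases reached on these arrays, so how much of either signal is transcript is unknown here. The same holds for the 3 dimmer SREBF2 probe sets below, with means of 7.31, 7.18 and 6.22.

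FDPS, which closes the early pathway, split the high RFI pigs. Low RFI values ran from 7.72 over 8.49 to 8.92 and high RFI values from 7.49 over 8.90 to 9.25. The 3 high RFI males (9.02, 9.14 and 9.25) were the 3 highest of the 12 pigs, P304 was at 8.79, and P317 (7.49) and P318 (7.98) were among the lowest together with P323 (7.72). The class means differed by -0.18 (SE 0.29, 95% interval -0.80 to 0.44, limma q = 0.808, exact permutation p = 0.589). Within males the difference was -0.55, under an unadjusted 0.05 in limma, and within females it was 0.18 and not under it, but the interaction of class and sex did not pass (limma q = 0.962).

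INSIG1 was the only member with a probe set under an unadjusted p of 0.05. Its probe set SNOWBALL_019582_st ran from 7.77 over 8.78 to 9.83 in low RFI pigs and from 7.15 over 7.85 to 8.88 in high RFI pigs. The top 3 values belonged to the low RFI pigs P323 (9.83), P309 (9.02) and P324 (8.97), but P307 (7.77) and P310 (7.93) of the same class lay below the high RFI mean of 7.94. The difference of 0.75 (SE 0.34, 95% interval 0.01 to 1.48, a 1.68-fold ratio) was under an unadjusted 0.05 in limma, with q = 0.595. The brighter INSIG1 probe set followed the first closely (r = 0.99, adjusted permutation p = 8e-05, and rho = 0.96 across 12 pigs) and differed by 0.63 (SE 0.34, limma q = 0.63, exact permutation p = 0.134). SNOWBALL_019582_st was higher in low RFI by 0.70 within males and by 0.79 within females, and the brighter probe set by 0.55 and 0.71. The call at an unadjusted 0.05 was lost when any one of P301, P302, P303, P304, P308, P309, P323 or P324 was left out (differences 0.52 to 0.76), and without P317 both INSIG1 probe sets were under it (differences 0.93 and 0.80), as they were without P307 or P310.

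SREBF2 was measured by 4 probe sets that moved together across pigs, with r between 0.62 and 0.90 (adjusted permutation p from 0.0004 to 0.0353 over 8 such pairs). The brightest ran from 8.37 over 8.56 to 8.82 in low RFI pigs and from 8.23 over 8.72 to 9.04 in high RFI pigs. P317 (8.23), P318 (8.33) and P323 (8.37) were lowest, the same 3 pigs as in FDPS, and the classes overlapped over most of their range. Its difference was -0.07 (SE 0.14, 95% interval -0.36 to 0.22, limma q = 0.821), and the other 3 probe sets differed by -0.05, -0.14 and -0.17 with q from 0.674 to 0.831. The last of these, SNOWBALL_026857_st, differed by -0.41 within males and 0.07 within females.

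**Figure D2:**
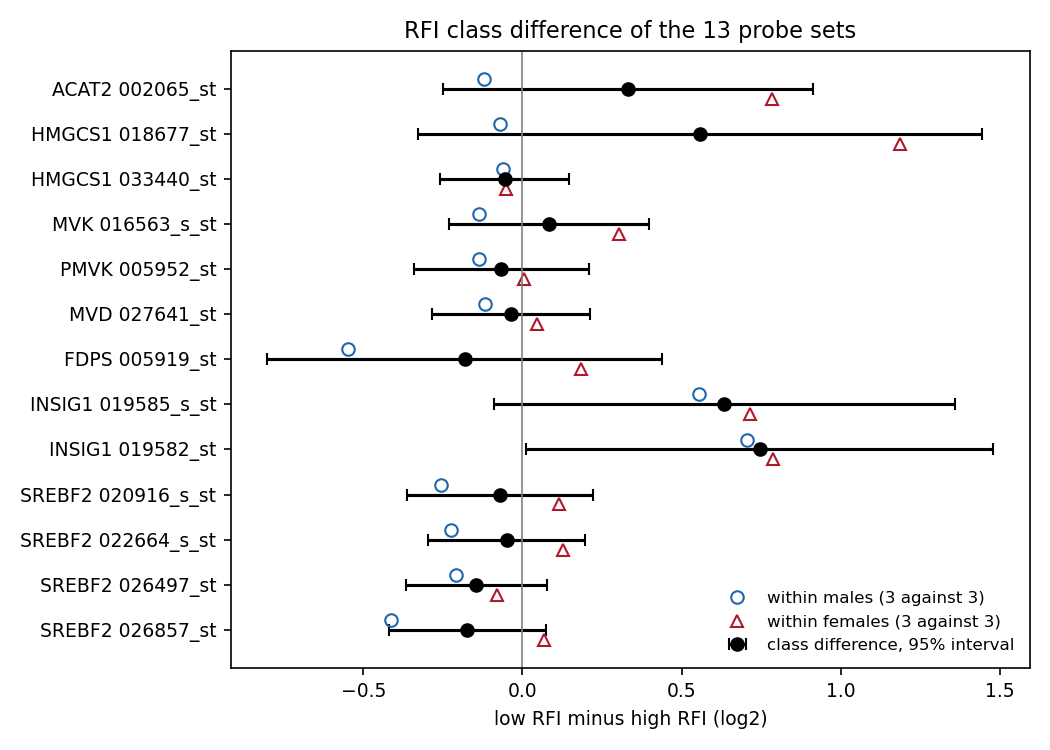
Low RFI minus high RFI (horizontal axis, log2) for the 13 probe sets, with black points and bars for the difference of 6 against 6 pigs and its 95% interval, and open symbols for the difference within each sex. The bar of INSIG1 SNOWBALL_019582_st alone stays above 0, from 0.01 to 1.48. The symbols for males and females stand apart for ACAT2, the bright HMGCS1 probe set, MVK, FDPS and the SREBF2 probe sets other than SNOWBALL_026497_st.

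The spread was unlike in the 2 classes, as a description without a test. The SD was larger in high RFI than in low RFI in 11 of 13 probe sets, where 47.7% of all probe sets had the larger SD in high RFI. These probe sets are correlated, so they are not 11 separate observations. The SD of high RFI over low RFI was 3.69 for ACAT2, 2.83 for HMGCS1, 1.78 for FDPS and 4.88 for the SREBF2 probe set SNOWBALL_022664_s_st, and 0.61 and 0.79 for the 2 INSIG1 probe sets. In the remaining 4 high RFI pigs the SD of HMGCS1 was 0.49 in place of 1.12, and that of ACAT2 was 0.20 in place of 0.74. Without P317 and P318, which were picked for their low values so that no test applies, the class difference was -0.10 for ACAT2, -0.10 for HMGCS1, -0.62 for FDPS, -0.26 for the brightest SREBF2 probe set and 0.91 for the brighter INSIG1 probe set. The sign for ACAT2 and HMGCS1 thus turned on these 2 females. The array of P317 had the lowest median signal of the 12 (3.478, other arrays 3.482 to 3.526) and the largest SD over probe sets (2.1972, others 2.134 to 2.1969), and on the first principal component it lay at -28.15, where the other high RFI pigs lay between 7.77 and 40.05 and the low RFI pigs between -37.5 and -8.73. P318 lay within the range of the other 11 arrays in all 3 measures. The mean of the hepatocyte markers was 12.92 in P317 and 12.90 in P318, within the range of the others. The part of these array measures in the values of P317 was not tested. The background of GC-rich probe sets was 6.49 in P317 and 6.78 in P318, close to the lowest (6.47) and at the highest value of the 12 arrays. The filter on SD in the study's methods, which drops probe sets of very low SD over all pigs or very high SD within a class, left out ACAT2, FDPS and both probe sets of HMGCS1 and INSIG1. For the dim HMGCS1 probe set it was the low SD (0.14) that left it out. It kept 7 of the 13, none of which passed q under 0.30, where 2.66% of the 35844 kept probe sets passed.

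The enzymes were higher in males than in females in mean, with RFI class in the model. At an unadjusted p under 0.05 there were 7 of 13 probe sets, all higher in males, against 6.11% of all probe sets (3.01% higher in males), and none passed q under 0.30 (0.0397% of all). They comprised HMGCS1 with 0.98 (SE 0.33), FDPS with 0.69 (SE 0.23), ACAT2 with 0.59 (SE 0.23), MVK with 0.31 (SE 0.13), MVD with 0.24 (SE 0.10), and 2 SREBF2 probe sets with 0.27 and 0.25, and their q lay between 0.67 and 0.753. Many of them are correlated, so they are not 7 separate observations. FDPS ran from 8.33 over 8.97 to 9.25 in males and from 7.49 over 8.22 to 8.79 in females, so the sexes overlapped, as they did for all 13 probe sets. The INSIG1 probe sets had the opposite sign, lower in males by mean differences of -0.42 and -0.40 (q = 0.849 and 0.855). Without P317 and P318 the male minus female difference was 0.42 for HMGCS1, 0.22 for ACAT2 and 0.47 for FDPS. The 7 probe sets became 4 without P301 or P318 and 3 without P302, P303 or P317, and 5 to 8 without any other pig.

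The interaction, which asks whether males and females had unlike class differences, was under an unadjusted 0.05 in 2 of 13 probe sets, against 4.44% of all, with q = 0.962 in limma for both. For ACAT2 the difference was -0.12 within males and 0.79 within females (interaction -0.91, SE 0.40), and for SREBF2 SNOWBALL_026857_st the interaction was -0.48 (SE 0.18). HMGCS1 gave -0.07 within males and 1.19 within females (interaction -1.25, SE 0.59), which was not under an unadjusted 0.05. The high RFI females of this contrast include P317 and P318. The count of 2 became 0 without P317, 1 without P301, P303, P307, P309, P310 or P318, and 6 without P304. Within males 3 of 13 probe sets were under an unadjusted 0.05, of FDPS, INSIG1 and SREBF2, against 7.75% of all, and within females 2 of 13, of ACAT2 and HMGCS1, against 3.69%.

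Across the 12 pigs part of the members varied together, without PMVK and with INSIG1 in the opposite direction. Of the 28 pairs of genes, each taken by its brightest probe set, 21 had a positive and 7 a negative Pearson r, and all 7 negative pairs were those of INSIG1. In a permutation test with 100000 resamples and Benjamini-Hochberg adjustment over the 28 pairs, 11 positive pairs and 1 negative pair were under 0.05. By Spearman's rho 8 of these 12 were under 0.05, and after subtraction of the class means 11 of the 12. Within males or females alone no pair was, in exact permutation tests on 6 pigs. The share of such pairs among other genes of the array was not counted, so these counts have no background beside them.

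**Figure D3:**
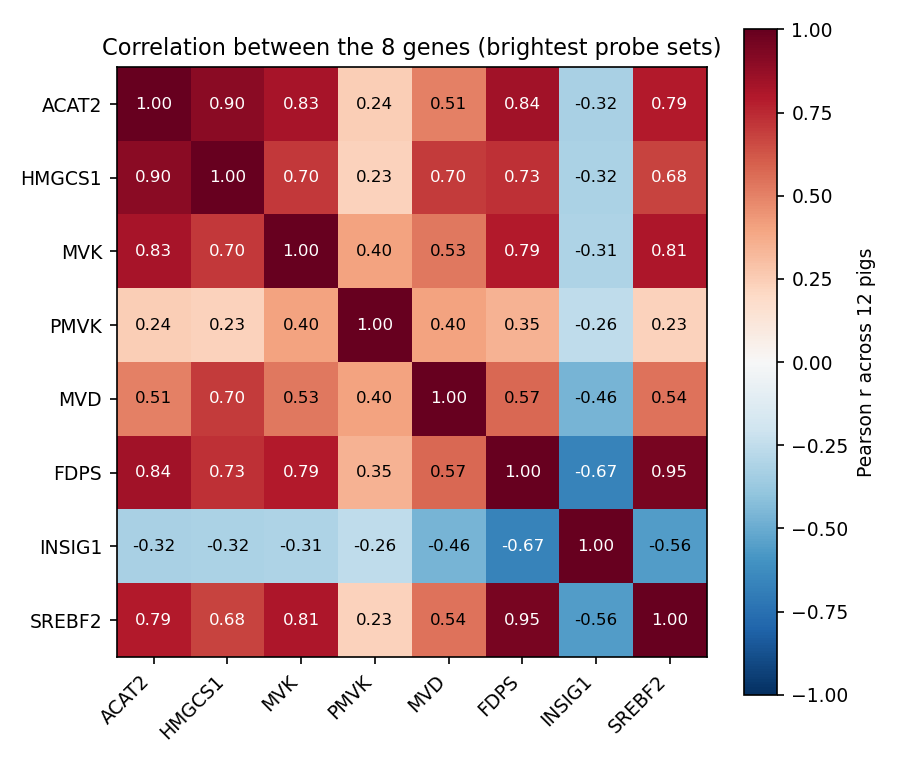
Pearson r across the 12 pigs between the brightest probe sets of the 8 genes, red for positive and blue for negative values. FDPS and SREBF2 reach 0.95, PMVK stays between -0.26 and 0.40 with the 7 other genes, and the row of INSIG1 is negative throughout.

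The closest pair was FDPS, the last enzyme of the set, and SREBF2, the gene of the pathway's transcription factor, with r = 0.95 and rho = 0.97 (both adjusted permutation p under 0.001, at 0.00056 and 0.00084). This relation held after subtraction of class means (r = 0.95), within low RFI (r = 0.93), within high RFI (r = 0.96), within males (r = 0.90) and within females (r = 0.98). Without P317 and P323, the pigs farthest from the FDPS median, r was 0.94. The 3 other SREBF2 probe sets shared this profile to the extent given above.

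ACAT2 followed FDPS (r = 0.84, adjusted permutation p = 0.00308), MVK (r = 0.83, p = 0.00168) and SREBF2 (r = 0.79, p = 0.00308), and r was 0.82, 0.73 and 0.74 without P317 and P318. MVK followed SREBF2 (r = 0.81) and FDPS (r = 0.79), with r of 0.71 and 0.67 without P308 and P317. HMGCS1 behaved differently. Its r was 0.90 with ACAT2, 0.73 with FDPS, 0.70 with MVK and 0.68 with SREBF2, but without P317 and P318 these values dropped to 0.44, 0.37, 0.27 and 0.25, so they rest on those 2 pigs. Within males HMGCS1 had r = 0.12 with ACAT2, 0.15 with FDPS and 0.00 with both MVK and SREBF2. The exception was MVD, whose r with HMGCS1 was 0.70 over all pigs (adjusted permutation p = 0.0416) and 0.88 without P317 and P318. PMVK was in no pair under 0.05, and among all members its signal had the highest r with the GC-rich background (r = 0.62, rho = 0.63, adjusted permutation p = 0.546 over 16 relations of 8 genes with 2 array measures).

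INSIG1 had a negative r with each of the 6 enzymes, of which the one with FDPS was under an adjusted 0.05. That r was -0.67 (rho = -0.61, adjusted permutation p = 0.0416, and 0.09 for rho), and r was -0.43 without P317 and P323. P323 had the highest INSIG1 (10.92 on the brighter probe set) and, after P317, the lowest FDPS. After subtraction of class means the r of INSIG1 was -0.55 with ACAT2, -0.56 with HMGCS1 and -0.67 with FDPS, each with an adjusted permutation p under 0.05 (0.0279, 0.0353 and 0.018).

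**Figure D4:**
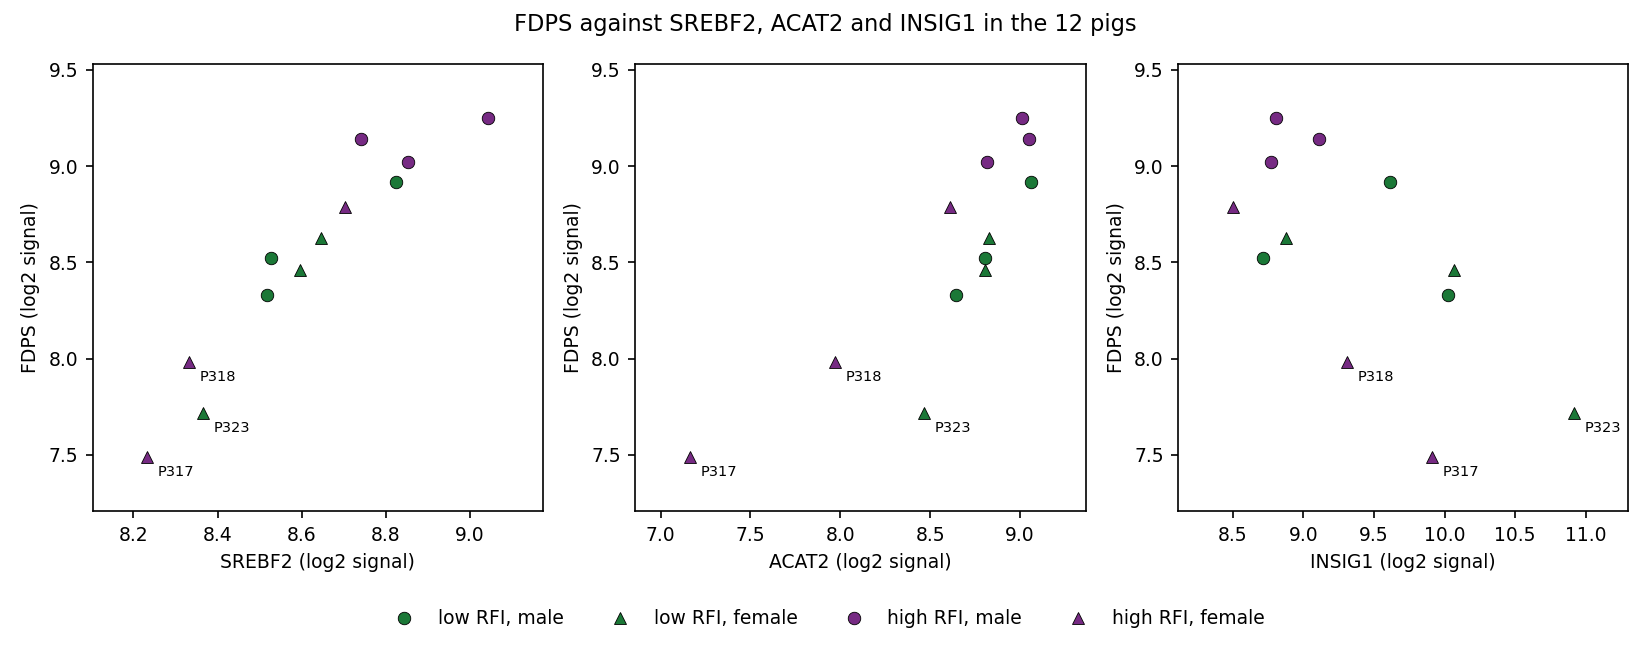
FDPS (vertical axes, log2 signal) against SREBF2, ACAT2 and INSIG1 (horizontal axes, log2 signal) in the 12 pigs, colored by class and shaped by sex, with P317, P318 and P323 named. FDPS follows SREBF2 along 1 line (r = 0.95), follows ACAT2 along a separate line in each class, and is lower where INSIG1 is higher (r = -0.67).

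FDPS and ACAT2 were related more tightly within each class (r = 0.97 in low RFI and 0.99 in high RFI) than over all pigs (r = 0.84), with the classes on separate lines. FDPS minus ACAT2 on the log2 scale ran from -0.75 over a median of -0.30 to -0.14 in low RFI and from 0.01 over 0.19 to 0.33 in high RFI. The 2 classes did not overlap in this quantity, and its sign has no meaning of its own because signals of different probe sets are not on a common scale. The class means were -0.34 (SD 0.21) and 0.18 (SD 0.11), a difference of -0.51. Classes without overlap always give the smallest p that the exact permutation test allows. It was 0.00216 over 924 assignments and 0.005 with sexes kept fixed, so neither p adds to the lack of overlap itself. The pair was picked after the values were seen, as the only one of 28 pairs without overlap. Over the 28 pairs its adjusted exact p is 0.0606. This is the smallest possible exact p adjusted for 28 pairs, so it too adds nothing to the lack of overlap. When FDPS was set against each of the other 47844 probe sets in the same way, 3 of them, or 0.00627%, gave no overlap, ACAT2 and 2 probe sets without a symbol. For ACAT2 set against each of the others the share was 0.0732%. A probe set that follows FDPS within each class removes shared spread from the difference, and other probe sets leave that spread in. These shares thus do not measure how often a closely related pair would lack overlap by chance. FDPS minus HMGCS1 (difference -0.74, exact permutation p = 0.026) and SREBF2 minus ACAT2 (difference -0.40, p = 0.0195) were the other pairs under an unadjusted 0.05, and in both the classes overlapped.

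**Figure D5:**
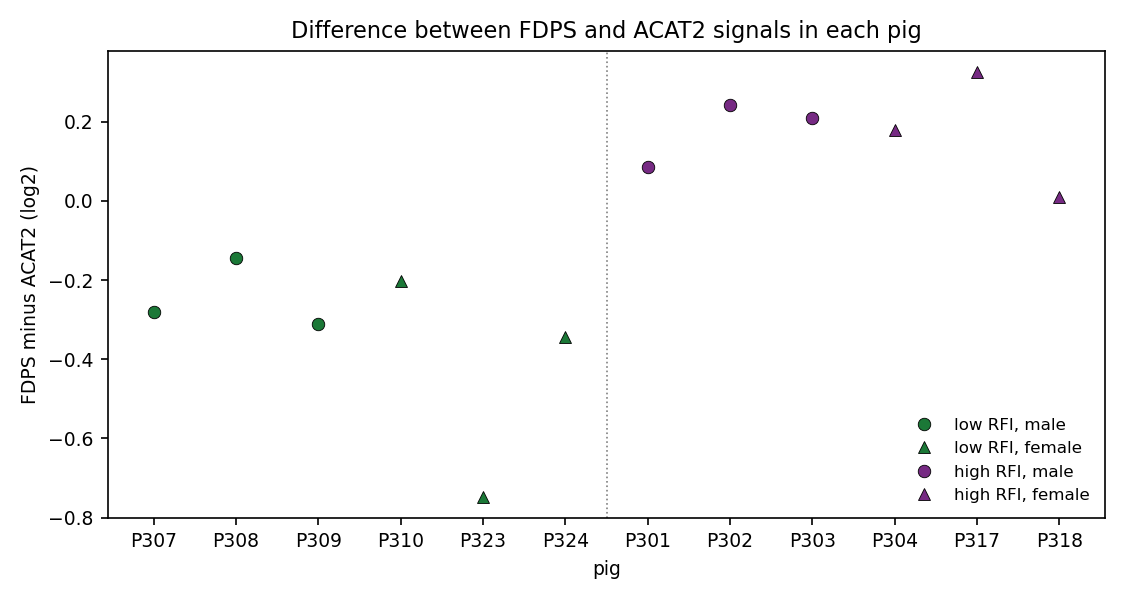
FDPS minus ACAT2 (vertical axis, log2) in each of the 12 pigs, low RFI on the left and high RFI on the right of the dotted line, circles for males and triangles for females. The 6 low RFI pigs lie between -0.75 and -0.14 and the 6 high RFI pigs between 0.01 and 0.33.

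The genes around the members were counted in the same limma fit by their brightest probe set. Of 11 further mevalonate and isoprenoid genes 7 are named in the annotation. None was under an unadjusted p of 0.05 by its brightest probe set, with a median difference of -0.06. ACAT1 differed by 0.20 on that probe set (limma q = 0.654), and the study lists another ACAT1 probe set among its altered transcripts. Of 13 late sterol genes 10 are named, and 4 were under 0.05, all higher in low RFI, where 3.79% of all probe sets were, by 0.33 for FDFT1 (2 of its 3 probe sets shared this sign), 0.75 for SQLE, 0.33 for CYP51A1 and 0.37 for MSMO1. None of these 4 passed q under 0.30 over all probe sets, and with the SD filter SQLE passed (q = 0.0121), as did 2.66% of the kept probe sets. Only 1 probe set was named SQLE in the annotation used here. The study lists further SQLE probe sets, with the smallest p of its list among them, and also reports an SQLE difference by RT-qPCR. It prints SQLE as lower in high FE pigs by both methods, the reverse of the direction that the labels give here. Of 11 genes for SREBP processing 8 are named and 1 was under 0.05, INSIG2, the paralog of INSIG1 (difference 0.81, SE 0.27, q = 0.519), whose other probe set had the opposite sign. The INSIG2 means of 4.98 in low RFI and 4.18 in high RFI are levels that GC-rich background probe sets also reached. SREBF1, the gene of the related SREBP1, differed by -0.27 (q = 0.705). None of the 5 named of 7 sterol uptake genes and none of the 9 named of 10 genes for LXR and sterol export was under 0.05.

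HMGCS1 was set against the 39 named genes of these lists across the 12 pigs. With adjustment over the 39 in a permutation test, 5 were under 0.05, all positive, namely FDFT1 (r = 0.85, rho = 0.80, adjusted p = 0.00702), EBP (r = 0.80, rho = 0.84, p = 0.0142), NSDHL (r = 0.77), MSMO1 (r = 0.74) and NPC1 (r = 0.71), the last 3 with adjusted p = 0.0477. By rho, FDFT1 and EBP were under 0.05. The share of all probe sets that would be under 0.05 with HMGCS1 was not counted. FDFT1 joins farnesyl diphosphate to squalene, EBP, NSDHL and MSMO1 act on later sterols, and NPC1 carries cholesterol out of lysosomes. Without P317 and P318 the r of FDFT1 was 0.66, of EBP 0.63, of NPC1 0.53, of NSDHL 0.37 and of MSMO1 0.31. INSIG1 had its most negative r in the lists with CYP7A1, the rate-limiting enzyme of bile acid synthesis (r = -0.86, rho = -0.81, adjusted permutation p = 0.0175, and 0.0831 for rho, and r = -0.72 without P323 and P324), and with SOAT2 (r = -0.78, adjusted permutation p = 0.056, or r = -0.45 without those 2 pigs).

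Among 10316 genes with a probe set at or above the array median, the 5 most like HMGCS1 over the 12 pigs were RCL1 (r = 0.92), PLTP (0.88), SLC2A10 (0.87), TNNC2 (0.86) and FDFT1 (0.85). The 5 most like the mean standardized profile of the 8 genes were EBP (r = 0.94), SLC2A10 (0.92), MMAB (0.88), ACSS2 (0.86) and RCL1 (0.85). EBP is a sterol isomerase, ACSS2 makes cytosolic acetyl-CoA from acetate, and MMAB acts in vitamin B12 metabolism and is known in humans and mice to share a promoter region with MVK. That mean profile was lowest in P317, followed by P318 (-0.65), and highest in P303 (0.95). Chosen after the values were seen, the 5 genes most like INSIG1 were UBE4A, SLC38A4, GABARAPL1, MARVELD3 and GANC, with r from 0.91 to 0.93. These r values are the highest of many and carry no test. RCL1, PLTP, SLC2A10, TNNC2, MMAB, MARVELD3 and GANC had means of 4.40 to 7.36, levels that GC-rich background probe sets also reached.

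Of the marker genes fixed for other liver cells, those under an unadjusted p of 0.05 were CD163 of the 3 named Kupffer cell markers (0.68 higher in low RFI) and RGS5 of the 5 stellate cell markers (0.71 higher), and none of the 6 hepatocyte, 4 cholangiocyte, 5 endothelial, 6 lymphocyte or 2 erythroid markers. The mean of the Kupffer cell markers ran from 6.95 to 7.71 in low RFI and from 6.65 to 7.15 in high RFI. That of the stellate cell markers ran from 7.15 to 8.42 and from 7.26 to 7.51. Their part in the values of INSIG1 or the enzymes was not tested.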

How the data were processed

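Total RNA of 12 livers, 1 array per pig and none pooled, was hybridized to Affymetrix snowball arrays. The authors scanned them with GCOS 1.1.1 (submitters' processing notes) and deposited RMA log2 values of 47845 probe sets. The labels name Qiazol and an RNeasy column for RNA isolation, and the study's methods name other kits. RMA forces equal distributions, so a shift of all transcripts cannot be seen. Arrays have no read depth, and 6 pigs per class limit the precision.

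All probe sets were fitted with limma 3.58.1 in R 4.3.3, by class alone, and called at a Storey q under 0.30. Sex was tested in a model that held class, and then by a class by sex term. Permutation tests and correlations used Python 3.11.15 with numpy 2.4.6, and 1e-05 is the smallest p of 100000 resamples. The scripts were tested on simulated data. The platform annotation names 26426 probe sets, and symbols of the lists were updated through RefSeq synonyms. The named genes are all members, list genes with p under 0.05 for the brightest probe set and up to 4 others per list, and the 5 symbols of highest r. Exceptions are the genes most like INSIG1, the correlations of INSIG1 with list genes and the FDPS minus ACAT2 difference, chosen after values were seen. The members and lists were chosen with earlier results of these data known. All p-values rest on the spread between these pigs and treat them as independent, although the study chose siblings of divergent RFI.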

Additional observations from a re-analysis of the deposited data

Results flagged for a closer look

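In a test for a value far from the other 5 of its class, 1 of 26 groups stood out. It was the SREBF2 probe set SNOWBALL_026857_st in low RFI, where the male P307 was at 5.88 and the other 5 pigs lay between 6.14 and 6.23. About 1 in 20 groups would be expected to stand out by chance. P317 and P318 were not singled out by this test in any of the 13 probe sets. The test looks for a lone distant value, and in ACAT2 and HMGCS1 these pigs were low together in the same class. Each could thus hide the other, so the test cannot decide whether P317 and P318 were outlying there. No interaction of class and sex passed q under 0.30.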

How the results depend on the processing

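No member passed q under 0.30 with the SD filter, without dim probe sets, with Benjamini-Hochberg adjustment, with sex in the model, in either sex alone, with array weights, with a trend in the variance, after median centring, or without any one pig. The exception was centring on RPL10 and RPL32, whose mean ran from 4.54 to 6.93 over the pigs. It shifted every difference by -0.35 and gave 47845 probe sets and 13 members under q = 0.30 although 183 probe sets and 0 members were under an unadjusted 0.05, so its q-values cannot be used. There ACAT2 was -0.014 and MVK -0.26, reversed. Over the array, 952 probe sets passed with the SD filter, 225 without dim probe sets, 25 with sex in the model, 2 in males and 0 in females, and 1 to 1345 with a pig left out (1345 without P317, 15 with all pigs). Members under an unadjusted 0.05 numbered 0 with the filter, 3 in males, 2 in females, 2 with array weights, and 0 to 2 with a pig left out. Those by sex numbered 3 to 8 and by interaction 0 to 6.

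Signs reversed in males for ACAT2 (-0.12), HMGCS1 (-0.070) and MVK (-0.14), and in females for PMVK (0.0043), MVD (0.046), FDPS (0.18) and SREBF2 SNOWBALL_020916_s_st (0.11), SNOWBALL_022664_s_st (0.13) and SNOWBALL_026857_st (0.067). With 1 pig left out, MVK ran from -0.0070 (without P317) to 0.145, PMVK from -0.12 to 0.0045 (without P303), MVD from -0.092 to 0.050 (without P303) and SREBF2 SNOWBALL_020916_s_st from -0.155 to 0.0071 (without P302). ACAT2 ran from 0.077 (without P317) to 0.455, HMGCS1 from 0.22 (without P317) to 0.82 (without P303), FDPS from -0.41 (without P317) to -0.040 (without P323), INSIG1 SNOWBALL_019585_s_st from 0.39 (without P323) to 0.83 and SNOWBALL_019582_st from 0.52 (without P323) to 0.93. None of these differences passed q under 0.30 with all pigs, and the cause of each change was not tested. Pairs of members under 0.05 numbered 12, and 0 within males and within females (HMGCS1 with MVK r = -0.0011 in males). Leaving out pigs in the sex and interaction models, rho, and the joint omission of P317 and P318 were chosen after seeing the data. No paired analysis was possible because the labels give no litter or shared number.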
